A study of Fagopyrum tataricum with 12 samples.

Results

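The genes described here encode the enzymes of the last steps of ethylene synthesis in Tartary buckwheat (Fagopyrum tataricum), a grain crop rich in flavonoids. They were 5 genes of 1-aminocyclopropane-1-carboxylate (ACC) synthase and 5 genes of ACC oxidase, 10 of the 26750 genes in the count table. A gene was taken when its deposited description named either enzyme, was not that of an oxidase homolog, and when it had at least 10 counts in at least 3 libraries. This rule used no test between groups, but it was set with earlier results of these data known. It also named 3 members: ACS1 (evm.TU.Ft5.2150), ACO3 (evm.TU.Ft8.3626) and ACO1 (evm.TU.Ft2.6493). The descriptions alone matched 14 genes, and 4 of them stayed under the count minimum. Just inside it was evm.TU.Ft2.3572, described as ACC oxidase 5, with at least 10 counts in 6 libraries and 200 counts over all 12. Those 6 were the 0 and 2 h libraries, so it passed only through the groups where it was highest. Just outside were evm.TU.Ft2.5478 (ACC oxidase 5, 61 counts in all), ACS3 (evm.TU.Ft7.4969, 54 counts), ACO1 (evm.TU.Ft1.96, 43 counts) and ACS2 (evm.TU.Ft2.1849, 1 count), none of which was tested.

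The series holds RNA-seq libraries of seedlings of the cultivar Dingku1, and its title asks about flavonoid regulation by MYB factors in drought. Plants of all groups were raised under long days to the 2-leaf stage, and RNA came from leaf and stem together. Control seedlings stood in Hoagland's nutrient solution and were taken at 0 h. The other hydroponic seedlings were taken after 2, 4 or 8 h in 20% PEG-6000 (polyethylene glycol), an osmotic agent used to imitate drought in solution. Each of the 4 groups had 3 libraries. No untreated library stands beside the 2, 4 or 8 h samples, and time of day and time in PEG therefore cannot be told apart in any comparison below.

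Ethylene is a gaseous hormone that plants make from methionine. Methionine is first activated to S-adenosylmethionine, ACC synthase (ACS) turns that into ACC and releases methylthioadenosine, and ACC oxidase (ACO), an iron- and ascorbate-dependent enzyme, turns ACC into ethylene. ACC synthase is generally regarded as the rate-limiting step and its protein is short-lived in Arabidopsis, while methylthioadenosine is returned to methionine by the Yang cycle. In leaves ethylene is known for its part in stomatal movement, growth restraint and senescence during water shortage.

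Libraries held 30468104 to 37395814 counted reads, and 22063 genes were tested. Spearman correlations of log2 CPM (counts scaled to a common library size) were 0.9966 to 0.9970 between libraries of a group and 0.895 to 0.977 between groups, and the edgeR fit had a common biological coefficient of variation of 4.90%. Nothing in the labels tells whether replicate libraries were made from separate plants, so the p-values reflect only the spread among these libraries, which may be technical. The tissue carried leaf markers: the summed level of 19 mesophyll genes was 59318 to 64007 CPM at 0 h, while 12 root genes summed to at most 37.8 CPM in any library. In whole tissue, fewer cells of a type and less RNA per cell cannot be told apart. Levels are CPM after TMM scaling unless FPKM (the deposited values, scaled by library total and coding length) is named, errors of means are SDs over the 3 libraries of a group, and folds and their standard errors (SE) are those of 1 edgeR fit over all 12 libraries, with a gene called at a Benjamini-Hochberg adjusted p under 0.05.

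Among the ACC synthase genes, ACS1 (evm.TU.Ft5.2150) rose 27.5-fold by 4 h and ACS-1 (evm.TU.Ft8.6) rose 4.41-fold by 8 h, while ACS7 (evm.TU.Ft6.3418) was lower at each time. The most abundant ACC oxidase genes, ACO1 (evm.TU.Ft2.6493) and ACO3 (evm.TU.Ft8.3626), fell at every time and were 5.95-fold and 7.82-fold lower at 8 h. At 2 h against 0 h, 8 of the 10 genes were called, 5 higher and 3 lower, against 63.2% of all tested genes (31.6% higher and 31.7% lower). At 4 h 9 were called, 4 higher and 5 lower, against 72.8% of all genes (35.1% higher and 37.7% lower). At 8 h 9 were called, again 4 higher and 5 lower, against 70.9% (36.4% higher and 34.5% lower). With such shares over all genes, the number of calls does not set these 10 genes apart. A change of at least 2-fold was called for 1 of them at 2 h, 5 at 4 h and 6 at 8 h, against 18.6%, 27.1% and 27% of all tested genes. Of the 5 ACC synthase genes, 4 were higher and 1 lower at 2 h, 3 higher and 1 lower at 4 h, and 3 higher and 2 lower at 8 h. Of the 5 ACC oxidase genes, 1 was higher and 2 lower at 2 h, 1 higher and 4 lower at 4 h, and 1 higher and 3 lower at 8 h. The median log2 fold change over the 5 ACC synthase genes was 0.80, 0.54 and 0.73 at 2, 4 and 8 h, and over the 5 ACC oxidase genes it was -0.30, -1.27 and -2.57. Over all tested genes the median was 0.00051, -0.04 and 0.03. The ACC oxidase counts and median, and the 2-fold counts, include evm.TU.Ft2.3572, which passed the count minimum only through 0 and 2 h libraries. Its part in the lower counts at 4 and 8 h is therefore no support for a fall.

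**Figure D1:**
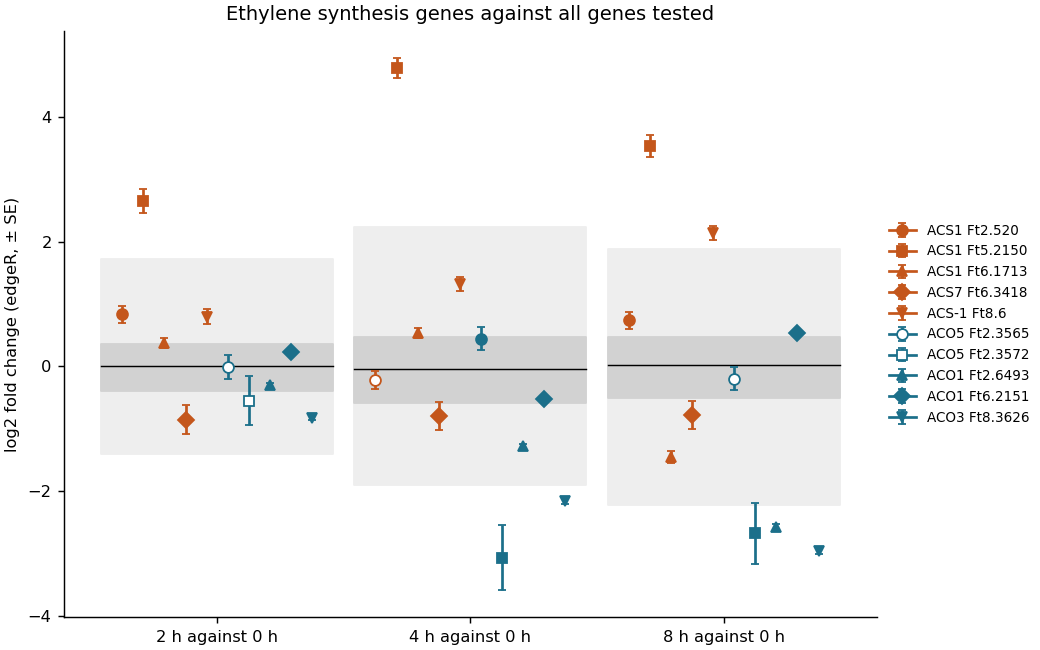
Log2 fold change of each ethylene synthesis gene against 0 h (y axis, edgeR estimate ± SE) at 2, 4 and 8 h in PEG (x axis). Orange marks ACC synthase and blue ACC oxidase genes, filled symbols are called genes and open symbols genes that were not, the dark band holds the middle 50% and the light band the middle 90% of all 22063 tested genes, and the line is their median. ACS1 Ft5.2150 lies above the light band at each time, and ACO3 Ft8.3626 and ACO1 Ft2.6493 move below it by 8 h.

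The ACC synthase gene that changed most, ACS1 (evm.TU.Ft5.2150, on chromosome 5 by its identifier), had few reads in control plants. Its counts were 124, 130 and 112 at 2 h in PEG, 516, 541 and 461 at 4 h and 248, 221 and 231 at 8 h, against 25, 15 and 20 at 0 h. No library of any PEG time overlapped a control library, and the 4 h libraries were also above those of 2 and 8 h. In CPM the gene averaged 0.548 ± 0.139 at 0 h, 3.46 ± 0.359 at 2 h, 15.1 ± 0.822 at 4 h and 6.37 ± 0.319 at 8 h. The log2 fold change against 0 h was 2.650 (SE 0.191) at 2 h, 4.78 (SE 0.16) at 4 h and 3.53 (SE 0.18) at 8 h, with adjusted p-values of 2.83e-15, 9.00e-26 and 1.88e-20 by edgeR. At 4 h this was the 240th highest fold change of 22063 genes. From the lowest to the highest level the order was 0, 2, 8 and 4 h, and each neighbouring pair differed. Between PEG times, the log2 difference of neighbours was 0.88 (SE 0.13) for 8 h against 2 h and -1.25 (SE 0.11) for 8 h against 4 h. The step of 4 h against 2 h was 2.13 (SE 0.12). The deposited annotation assigns it to the KEGG map of MAPK signalling in plants as well as to that of cysteine and methionine metabolism, as it does the other ACS1 genes.

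ACS-1 (evm.TU.Ft8.6), a further ACC synthase gene on chromosome 8, rose without a turn. Its libraries held 6.96, 5.87 and 5.84 CPM at 2 h, 9.26, 9.18 and 8.33 CPM at 4 h and 15.6, 15.8 and 16.1 CPM at 8 h, against 3.92, 3.50 and 3.32 CPM at 0 h. The groups did not overlap at any step. The log2 fold change against 0 h was 0.80 (SE 0.12), 1.32 (SE 0.11) and 2.14 (SE 0.11) at 2, 4 and 8 h (edgeR adjusted p of 2.15e-07, 3.87e-13 and 3.77e-20). The gene was also higher at 4 h than at 2 h by 0.52 (SE 0.11) and higher at 8 h than at 4 h by 0.82 (SE 0.10) on the log2 scale.

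The ACS1 gene on chromosome 6 (evm.TU.Ft6.1713) was the most abundant ACC synthase gene of control plants, and it rose early and then fell below the control. Its libraries held 19.5, 20.02 and 18.7 CPM at 2 h, 20.4, 20.8 and 23.8 CPM at 4 h and 5.36, 5.83 and 5.16 CPM at 8 h, against 14.2, 15.8 and 14.7 CPM at 0 h. The 2 and 4 h libraries all lay above the controls and the 8 h libraries all lay below them. It changed on the log2 scale by 0.38 (SE 0.08) at 2 h, 0.54 (SE 0.08) at 4 h and -1.45 (SE 0.09) at 8 h (edgeR adjusted p of 7.41e-05, 1.43e-07 and 2.77e-17), and the difference of 8 h against 4 h was -1.99 (SE 0.09). The 2 and 4 h levels were neighbours that did not differ by the test, with a difference of 0.16 (SE 0.08; edgeR adjusted p = 0.0840), which became 0.18 (adjusted p = 0.0473) with DESeq2 size factors.

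The ACS1 gene on chromosome 2 (evm.TU.Ft2.520) was high at 2 and 8 h and low at 0 and 4 h. Its libraries held 6.93, 7.90 and 7.03 CPM at 2 h, 3.55, 3.58 and 3.40 CPM at 4 h and 6.38, 8.15 and 5.89 CPM at 8 h, against 4.28, 3.69 and 4.26 CPM at 0 h. The 2 and 8 h libraries overlapped each other and lay above all others, and the 4 h libraries lay just under the controls. Against 0 h the log2 fold change was 0.84 (SE 0.14; edgeR adjusted p = 1.13e-06) at 2 h and 0.73 (SE 0.14; 9.20e-06) at 8 h, while at 4 h it was -0.21 (SE 0.15; 0.188), which was not called. The step of 4 h against 2 h was -1.05 (SE 0.14) and that of 8 h against 4 h 0.95 (SE 0.14), both called, and 8 h against 2 h was -0.10 (SE 0.13), which was not.

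ACS7 (evm.TU.Ft6.3418), named after the Arabidopsis enzyme that lacks the long regulated tail of other ACC synthases, was the ACC synthase gene that was lower at all times. Its counts were 84, 82 and 53 at 2 h, 90, 75 and 52 at 4 h and 81, 46 and 115 at 8 h, against 147, 156 and 109 at 0 h. In CPM, the 2 and 4 h libraries lay below all controls, whereas the highest 8 h library, at 2.999 CPM, was level with the lowest control, at 2.99 CPM. Against 0 h it was lower, with log2 fold changes of -0.86 (SE 0.23), -0.80 (SE 0.23) and -0.78 (SE 0.23) at 2, 4 and 8 h (edgeR adjusted p of 0.00139, 0.00240 and 0.00259). The 3 PEG times were neighbours that did not differ by the test, with log2 differences of 0.06 (SE 0.24) for 4 h against 2 h and 0.01 (SE 0.24) for 8 h against 4 h. The 8 h call was lost with limma on log2(FPKM + 1) without a filter on low values, where the change was -0.46 (adjusted p = 0.0527).

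**Figure D2:**
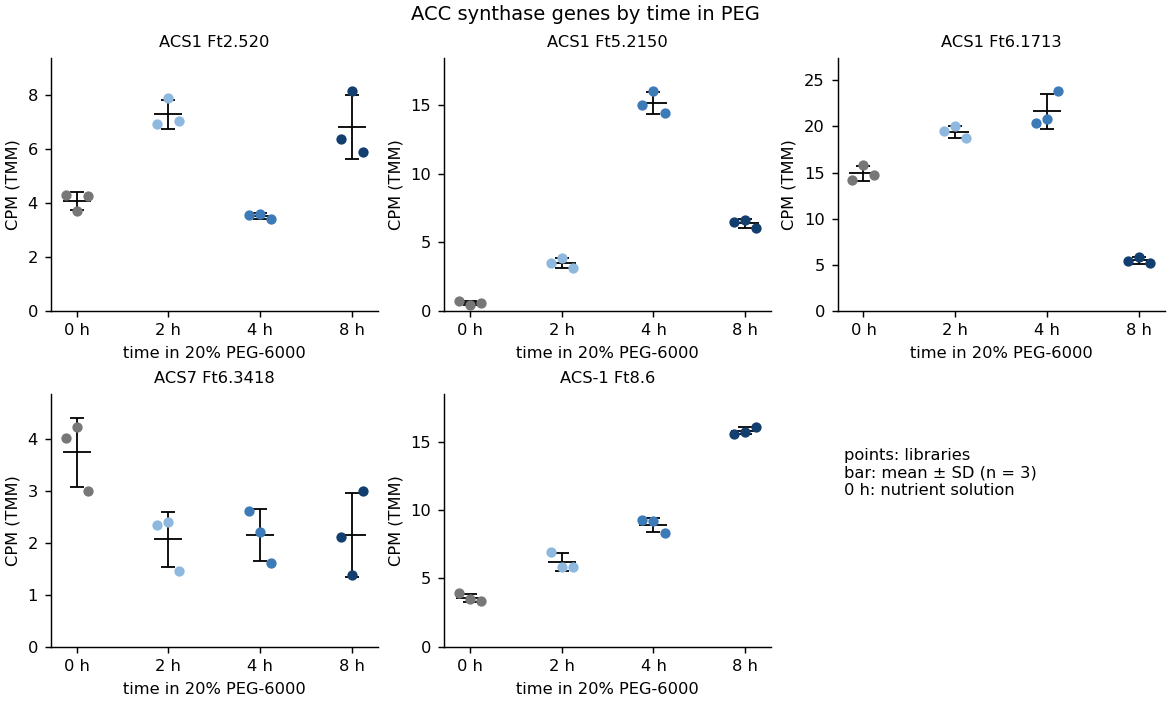
Level of each of the 5 ACC synthase genes (y axis, CPM after TMM scaling, each panel with its own scale from 0) by time in 20% PEG-6000 (x axis), with a point for each library and a bar for the mean ± SD of 3 libraries. ACS1 Ft5.2150 peaks at 4 h with 14.4 to 16.02 CPM, ACS-1 Ft8.6 climbs to 15.6 to 16.1 CPM at 8 h, and ACS1 Ft6.1713 drops to 5.16 to 5.83 CPM at 8 h.

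ACO1 (evm.TU.Ft2.6493, chromosome 2) carried the most ACC oxidase transcript and fell step by step. Its libraries held 862, 877 and 878 CPM at 2 h, 462, 441 and 427 CPM at 4 h and 179.8, 182 and 179 CPM at 8 h, against 1046, 1098 and 1071 CPM at 0 h. The groups did not overlap at any step, and the spread within each group was small beside the steps. The log2 fold change against 0 h was -0.30 (SE 0.03), -1.27 (SE 0.03) and -2.57 (SE 0.04) at 2, 4 and 8 h (edgeR adjusted p of 4.11e-10, 1.75e-29 and 4.74e-39), and the steps of 4 h against 2 h and of 8 h against 4 h were -0.98 (SE 0.03) and -1.30 (SE 0.03). By mean FPKM the gene stood at rank 872 of 26750 at 8 h, against rank 100 at 0 h.

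ACO3 (evm.TU.Ft8.3626, chromosome 8) was nearly as abundant in control plants and fell earlier. Its libraries held 489, 476 and 501 CPM at 2 h, 198, 192 and 192 CPM at 4 h and 116, 106 and 112 CPM at 8 h, against 871, 888 and 853 CPM at 0 h. Again no groups overlapped. On the log2 scale the difference from 0 h was -0.83 (SE 0.03), -2.17 (SE 0.04) and -2.97 (SE 0.04) at 2, 4 and 8 h (edgeR adjusted p of 1.23e-22, 5.37e-36 and 4.12e-40), and at 8 h it was the 575th lowest of 22063. The steps between PEG times were -1.33 (SE 0.04) for 4 h against 2 h and -0.80 (SE 0.04) for 8 h against 4 h. Per coding length, the ratio of ACO1 Ft2.6493 to ACO3 Ft8.3626 was 1.25 ± 0.0285 at 0 h, 1.81 ± 0.0515 at 2 h, 2.32 ± 0.0578 at 4 h and 1.65 ± 0.0846 at 8 h.

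These falls ran beside a fall of the mesophyll markers, whose summed level was 59318 to 64007 CPM at 0 h, 34271 to 36743 CPM at 2 h, 27666 to 27924 CPM at 4 h and 7801 to 8270 CPM at 8 h. Of those 19 genes 18 were lower at 2 h, 17 at 4 h and 18 at 8 h, where 31.7%, 37.7% and 34.5% of all tested genes were, and none was at 0 counts in all libraries. Summed vascular and secondary wall markers (12 genes) were at 792 to 833 CPM at 8 h, against 373 to 399 CPM at 0 h, and of the 11 tested 8 were higher and 1 lower. Of all tested genes 36.4% were higher at 8 h. At 2 h 4 of the 11 were higher and 2 lower, and at 4 h 3 were higher and 3 lower. The sum leans on XCP1 (evm.TU.Ft5.1044), which reached 21433 counts in a library, against at most 5346 for any other gene of the list. Epidermal markers (12 genes) summed to 1854 to 2054 CPM at 8 h, against 788 to 835 CPM at 0 h. Of the 10 tested, however, 3 were higher and 5 lower at 8 h, 1 was higher and 7 lower at 2 h, and 1 was higher and 6 lower at 4 h. Guard cell markers (11 genes) summed to 109.8 to 119 CPM at 8 h, against 148 to 153 CPM at 0 h, and of the 8 tested 2 were higher and 3 lower. The part of these shifts in the ACC synthase and ACC oxidase results was not tested.

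The ACO1 gene on chromosome 6 (evm.TU.Ft6.2151) did not follow the fall of the abundant genes. Its libraries held 63.8, 70.4 and 60.6 CPM at 2 h, 37.8, 36.8 and 41.1 CPM at 4 h and 80.3, 73.9 and 85.8 CPM at 8 h, against 59.0, 56.4 and 50.6 CPM at 0 h. The 4 h libraries were the lowest and the 8 h libraries the highest of the 12, and all 2 h libraries lay above all controls. Relative to 0 h, the log2 fold change was 0.23 (SE 0.06), -0.52 (SE 0.06) and 0.53 (SE 0.06) at 2, 4 and 8 h (edgeR adjusted p of 0.000778, 9.37e-10 and 1.46e-10). From the lowest to the highest level the order was 4, 0, 2 and 8 h, and each neighbouring pair differed, the last of them by 0.30 (SE 0.06) for 8 h against 2 h.

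The remaining ACC oxidase genes, both described as ACC oxidase 5 and both on chromosome 2, were low. The counts of evm.TU.Ft2.3572 were 30, 10 and 29 at 2 h, 3, 4 and 4 at 4 h and 3, 5 and 8 at 8 h, against 39, 31 and 34 at 0 h. All PEG libraries lay below all controls, and at 4 and 8 h few reads were left, so the size of the fall is known only roughly. The log2 fold change was -0.55 (SE 0.40; edgeR adjusted p = 0.228) at 2 h, which was not called, -3.07 (SE 0.52; 2.29e-06) at 4 h and -2.68 (SE 0.49; 7.79e-06) at 8 h. The 4 and 8 h levels did not differ by the test, with 0.39 (SE 0.68) for 8 h against 4 h. Since the gene met the count minimum only through its 0 and 2 h libraries, these falls are given as description.

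The counts of the other ACC oxidase 5 gene, evm.TU.Ft2.3565, were 124, 106 and 107 at 2 h, 120, 176 and 139 at 4 h and 117, 80 and 111 at 8 h, against 105, 154 and 92 at 0 h. In CPM the control libraries overlapped those of every PEG time. The log2 fold change was -0.01 (SE 0.19) at 2 h and -0.20 (SE 0.19) at 8 h, neither called, and 0.44 (SE 0.18; edgeR adjusted p = 0.0288) at 4 h. The 4 h call was lost without control replicate 1 (0.37) or 3 (0.30), without PEG 4 h replicate 2 (0.29) or 3 (0.44), without TMM scaling (0.37) and with limma on log2 FPKM (0.31 to 0.38), and without control replicate 2 the value was 0.68. The lower level at 8 h than at 4 h, -0.64 (SE 0.18; adjusted p = 0.00273), was called by edgeR and lost with limma on log2 FPKM (-0.33 to -0.40). The higher level at 4 h than at 2 h, 0.45 (SE 0.18; 0.0355), was lost without PEG 2 h replicate 2 (0.44) or 3 (0.40), without PEG 4 h replicate 2 (0.30) or 3 (0.45), and with the same alternative scalings.

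**Figure D3:**
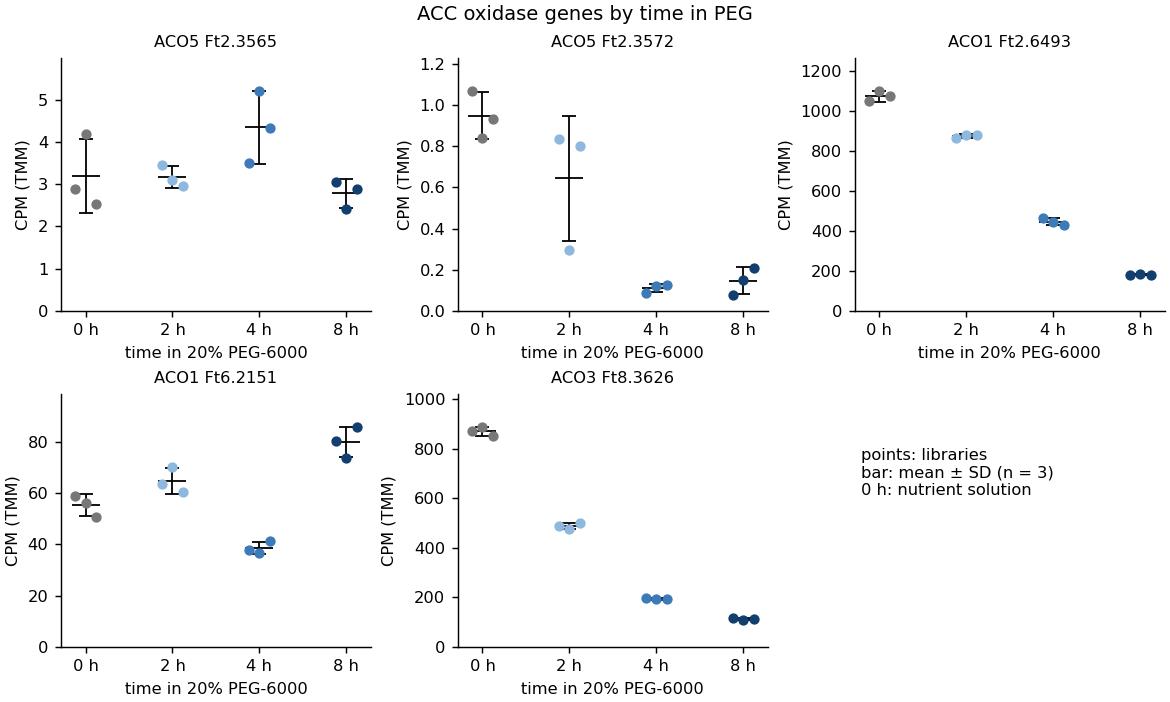
Level of each of the 5 ACC oxidase genes (y axis, CPM after TMM scaling, each panel with its own scale from 0) by time in 20% PEG-6000 (x axis), with a point for each library and a bar for the mean ± SD of 3 libraries. ACO1 Ft2.6493 and ACO3 Ft8.3626 fall at each step to 179 to 182 and 106 to 116 CPM at 8 h, while ACO1 Ft6.2151 reaches 73.9 to 85.8 CPM at 8 h.

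Levels of different genes were compared per coding length, as FPKM, which carry no TMM scaling. Summed over the 5 genes, ACC synthase transcript was 18.1 ± 0.776 FPKM at 0 h, 26.1 ± 1.45 at 2 h, 32.9 ± 0.331 at 4 h and 27.6 ± 0.792 at 8 h. In CPM with TMM scaling the sum was 26.9 ± 0.949 at 0 h, 38.4 ± 2.04 at 2 h, 51.4 ± 0.491 at 4 h and 36.6 ± 1.02 at 8 h. The order of 2 and 8 h thus differed between the 2 measures, and their libraries overlapped in both. Summed ACC oxidase transcript was 2072 ± 47.3 FPKM at 0 h, 1502 ± 12.3 at 2 h, 674 ± 17.3 at 4 h and 431 ± 9.95 at 8 h. In every library ACC oxidase transcript exceeded ACC synthase transcript, and the ratio of the sums was 114 ± 3.13 at 0 h, 57.8 ± 3.69 at 2 h, 20.5 ± 0.730 at 4 h and 15.6 ± 0.720 at 8 h. The libraries of the 4 groups did not overlap in this ratio. No p is given for these sums, whose genes were tested above.

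The family sums also changed in makeup. At 0 h, ACS1 Ft6.1713 gave 54.2% ± 2.72 of ACC synthase FPKM, ACS7 15.3% ± 2.19, ACS1 Ft2.520 14.8% ± 1.63, ACS-1 Ft8.6 13.7% ± 0.991 and ACS1 Ft5.2150 2.01% ± 0.525. At 4 h, ACS1 Ft6.1713 still led with 41.4% ± 3.55, and ACS1 Ft5.2150 had reached 29.3% ± 1.49. At 8 h, ACS-1 Ft8.6 led with 44.03% ± 1.27, followed by ACS1 Ft2.520 with 18.0% ± 2.71, ACS1 Ft5.2150 with 17.1% ± 0.709, ACS1 Ft6.1713 with 14.4% ± 0.618 and ACS7 with 6.47% ± 2.50. The shares of Ft2.520 and Ft5.2150 at 8 h overlapped between libraries, whereas Ft8.6 lay above every other gene in each 8 h library. In the ACC oxidase family, ACO1 Ft2.6493 and ACO3 Ft8.3626 together gave 97.0% ± 0.223 of the FPKM at 0 h, 95.2% ± 0.360 at 2 h, 93.6% ± 0.488 at 4 h and 77.8% ± 1.26 at 8 h. ACO1 Ft6.2151 gave 21.4% ± 1.21 at 8 h, against 2.77% ± 0.210 at 0 h. How reads shared by near-identical copies were counted is not stated in the sources used here, so the split among the ACS1 genes and among the ACO genes carries that uncertainty.

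**Figure D4:**
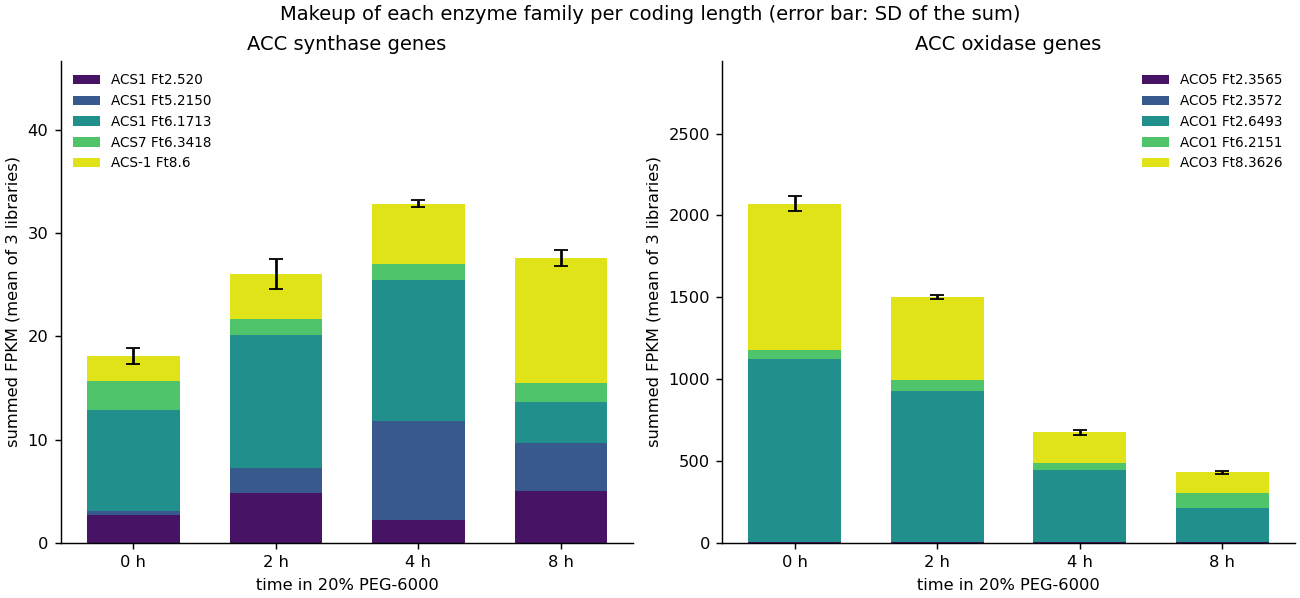
Summed FPKM of the 5 ACC synthase genes (left) and the 5 ACC oxidase genes (right) by time in 20% PEG-6000, as stacked bars of the mean over 3 libraries with the SD of the sum as the error bar; the y axes have different scales. ACC synthase rises to 32.9 FPKM at 4 h and ends with ACS-1 Ft8.6 as its main part, while ACC oxidase declines to 431 FPKM at 8 h.

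Between PEG times, 8 of the 10 genes were called at 4 h against 2 h (3 higher and 5 lower, against 53.2% of all tested genes, 26.3% higher and 26.9% lower), 8 at 8 h against 4 h (3 higher and 5 lower, against 65.5%, 33.8% higher and 31.7% lower) and 7 at 8 h against 2 h (3 higher and 4 lower, against 63.3%, 31.3% higher and 32% lower). Changes of at least 2-fold were called for 4, 4 and 5 genes in these comparisons, against 8.54%, 17.6% and 18.7% of all tested genes. These counts too include evm.TU.Ft2.3572, with the limit given above. ACS-1 Ft8.6 was higher and ACO1 Ft2.6493 and ACO3 Ft8.3626 were lower in all 3 of these comparisons. ACS1 Ft5.2150, ACS1 Ft2.520 and ACO1 Ft6.2151 changed direction between the step to 4 h and the step to 8 h, as the values above show. ACC oxidase 5 Ft2.3565 also turned, but its calls at both steps were lost under the alternatives given above.

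The genes with the most similar course were sought for the 3 genes named in the choice, by Pearson's r of log2(CPM + 0.5) over the 12 libraries among 15431 described genes with a mean of at least 1 CPM. These r values are descriptions, since the 12 points are 4 groups of 3 and share the time course. For ACS1 Ft5.2150 they were EXLB1 (evm.TU.Ft4.565), an expansin-like wall protein (r = 0.9970), MBR1 (evm.TU.Ft5.774), a ubiquitin ligase (r = 0.9967), and ACX2 (evm.TU.Ft7.2562), a peroxisomal acyl-CoA oxidase (r = 0.9964). EXLB1 averaged 7.78 ± 0.292 CPM at 0 h, 30.1 ± 2.58 at 2 h, 103 ± 2.52 at 4 h and 52.2 ± 1.85 at 8 h, the same order of times as the ACS1 gene.

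For ACO3 Ft8.3626 the most similar genes were EID1 (evm.TU.Ft2.5021), an F-box protein of phytochrome A signalling in Arabidopsis (r = 0.9986), evm.TU.Ft2.3804, described as a probable disease resistance protein (r = 0.9977), and CYP82A3 (evm.TU.Ft8.4331), a cytochrome P450 (r = 0.9975). EID1 averaged 88.2 ± 4.28 CPM at 0 h, 37.5 ± 0.653 at 2 h, 8.01 ± 0.686 at 4 h and 3.69 ± 0.331 at 8 h. For ACO1 Ft2.6493 they were COL2 (evm.TU.Ft8.2678), a CONSTANS-like zinc finger protein (r = 0.9996), LHY (evm.TU.Ft7.3783), a morning component of the plant clock (r = 0.9974), and PIP2-2 (evm.TU.Ft3.3223), an aquaporin (r = 0.9969). COL2 averaged 252 ± 10.5 CPM at 0 h, 159 ± 4.70 at 2 h, 41.7 ± 1.75 at 4 h and 7.09 ± 0.274 at 8 h, and LHY 368 ± 7.19 CPM at 0 h, 171 ± 6.21 at 2 h, 38.5 ± 1.38 at 4 h and 2.34 ± 0.108 at 8 h.

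Around the synthesis genes stood 75 tested genes of 6 lists, of which 30 rose and 21 fell at 2 h, 40 rose and 27 fell at 4 h, and 28 rose and 37 fell at 8 h. Of all tested genes 31.6% rose and 31.7% fell at 2 h, 35.1% and 37.7% at 4 h, and 36.4% and 34.5% at 8 h. Each list's counts stand against those shares. Some of these genes were near the floor and passed the count filter only through the groups where they were highest. The calls of such genes are no support for a rise or a fall. The genes named follow the smallest p in their list, and further genes of the same description were looked up after their values were seen. The first list supplies methionine and S-adenosylmethionine, and of the 13 tested, 6 rose and 2 fell at 2 h, 7 rose and 4 fell at 4 h, and 4 rose and 8 fell at 8 h. The falls at 8 h include SAHH1 evm.TU.Ft5.169, at 0.060 to 0.156 CPM against 0.217 to 0.439 CPM at 0 h. The rises at 4 h include SAHH evm.TU.Ft2.3977, at 0.156 to 0.612 CPM against 0.055 to 0.190 CPM at 0 h. Both passed the count filter only through groups where they were higher, so these calls are no support for a change. METE (evm.TU.Ft6.2973), a methionine synthase, averaged 82.7 ± 2.16 CPM at 2 h, 83.4 ± 2.33 at 4 h and 31.3 ± 1.82 at 8 h, against 17.2 ± 1.04 CPM at 0 h, a log2 fold change of 2.27 (SE 0.05), 2.28 (SE 0.05) and 0.87 (SE 0.06). The other METE genes fell at 4 and 8 h. METE evm.TU.Ft3.1102 averaged 432 ± 13.8 CPM at 2 h, 318 ± 19.4 at 4 h and 148.2 ± 6.91 at 8 h, against 411 ± 20.8 CPM at 0 h. Its log2 fold change was 0.07 (not called), -0.37 and -1.47 (SE 0.04 each). METE evm.TU.Ft3.1103 had 239 ± 10.99 CPM at 2 h, 171.5 ± 8.71 at 4 h and 115.3 ± 6.18 at 8 h, against 224 ± 11.6 CPM at 0 h. Its change was 0.09 (not called), -0.39 and -0.96 (SE 0.04 each). Of the 6 S-adenosylmethionine synthase genes tested, 3 rose and 2 fell at 2 h, 3 rose and 2 fell at 4 h, and 1 rose and 5 fell at 8 h. The falls of the pair described as METK5 at 8 h were lost without TMM scaling. METK1 (evm.TU.Ft2.1066), an S-adenosylmethionine synthase, fell at each time, with 41.1 ± 4.58 CPM at 8 h against 243 ± 3.68 CPM at 0 h. SAMS2 (evm.TU.Ft5.673), another S-adenosylmethionine synthase gene, had 975 ± 36.9 CPM at 4 h and 332 ± 4.88 CPM at 8 h, against 907 ± 11.99 CPM at 0 h. Its fall at 8 h was -1.45 (SE 0.03) on the log2 scale, whereas its small rise at 4 h, 0.11 (SE 0.03), was lost without PEG 4 h replicate 3 (0.08) or without TMM scaling (0.04). METK2 (evm.TU.Ft4.1348), which shares the description of SAMS2, rose at each time. It averaged 524 ± 7.98 CPM at 2 h, 424 ± 9.07 at 4 h and 276 ± 4.41 at 8 h, against 224 ± 2.47 CPM at 0 h. The log2 fold change of METK2 was 1.22, 0.92 and 0.30 (SE 0.03 each).

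The Yang cycle returns the methylthio group that ACC synthase releases, and each of its steps found here had 1 gene. MTK (evm.TU.Ft4.702), the methylthioribose kinase, rose at each time, by 0.43 (SE 0.04), 1.01 (SE 0.04) and 0.63 (SE 0.04) on the log2 scale at 2, 4 and 8 h. It averaged 177 ± 9.83 CPM at 4 h, against 87.9 ± 4.62 CPM at 0 h. MTN1 (evm.TU.Ft7.3609), the methylthioadenosine nucleosidase, rose by 0.58 (SE 0.05) at 2 h and 0.35 (SE 0.05) at 4 h, while the 0.13 (SE 0.05) called at 8 h was lost without control replicate 2 (0.12). The methylthioribose-1-phosphate isomerase gene (evm.TU.Ft6.484) fell by 0.15 on the log2 scale at 2 h and rose by 0.23 (SE 0.05) at 8 h. Its 4 h value of 0.11 (SE 0.05) was called, and the call was lost without control replicate 1 (0.10) or 2 (0.10), without PEG 4 h replicate 1 (0.07) or 3 (0.12), and without TMM scaling (0.04).

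The polyamine branch draws on the same S-adenosylmethionine, and of the 7 tested, 1 rose and 3 fell at 2 h, 2 rose and 4 fell at 4 h, and 1 rose and 6 fell at 8 h, counts of few genes beside the shares over all genes given above. Of its 3 S-adenosylmethionine decarboxylase genes, SAMDC2 evm.TU.Ft1.409 and evm.TU.Ft1.2798 fell by 8 h, with log2 fold changes of -0.64 (SE 0.03) and -1.27 (SE 0.04). The third, SAMDC2 evm.TU.Ft4.1118, rose at 2 h by 1.33 (SE 0.25) and at 4 h by 0.84 (SE 0.26). It had 2.69 ± 0.366 CPM at 2 h and 1.92 ± 0.303 CPM at 4 h, against 1.07 ± 0.187 CPM at 0 h. Its call at 8 h, -0.76 (SE 0.29), was lost without control replicate 1 (-0.70) or 2 (-0.67), without PEG 8 h replicate 3 (-0.58) and without TMM scaling (-0.61). The gene Ft1.409 had 1456 ± 46.6 CPM at 8 h, against 2265 ± 13.0 CPM at 0 h. ACL5 (evm.TU.Ft7.5298), a thermospermine synthase, fell at each time, to 5.82 ± 0.106 CPM at 8 h, against 25.3 ± 2.84 CPM at 0 h. SPDSYN (evm.TU.Ft4.934), a spermidine synthase, fell as well, with -0.43, -0.70 and -0.74 (SE 0.04 each) at 2, 4 and 8 h. SPMS (evm.TU.Ft6.2762), the only tested gene described as spermine synthase, went the other way. It was not called at 2 h (0.07) and rose by 0.28 (SE 0.07) at 4 h and 0.24 (SE 0.07) at 8 h.

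The ACC synthase protein is marked for breakdown in Arabidopsis by ETO1, its relative EOL1 and the ubiquitin ligase XBAT32. EOL1 (evm.TU.Ft1.1699) fell at 2 h (-0.48, SE 0.07) and 4 h (-0.53, SE 0.07). At 8 h its change of -0.15 (SE 0.07) had the other sign without TMM scaling (0.0048), and the call was lost without control replicate 2 (-0.15) or 3 (-0.10) and without PEG 8 h replicate 1 (-0.14) or 2 (-0.11). ETO1 (evm.TU.Ft8.2946) was higher at 4 h, at 61.1 ± 2.79 CPM against 48.0 ± 1.10 CPM at 0 h, with a log2 fold change of 0.35 (SE 0.05), and was not called at 2 h (0.01) or 8 h (-0.03). Without TMM scaling its 8 h value was a called rise of 0.12. XBAT32 (evm.TU.Ft8.192) was higher at 4 h (0.29, SE 0.06) and 8 h (0.33, SE 0.06).

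Perception and signalling held 35 tested genes, and 14 of them rose and 12 fell at 2 h, 17 rose and 15 fell at 4 h, and 12 rose and 17 fell at 8 h, beside the shares of all genes given above. Several of the 35 are described as the kinase CTR1, which may be a broad label for related kinases. These are counted here but not named. ETR2 (evm.TU.Ft1.434), an ethylene receptor, which in Arabidopsis represses the response until ethylene binds, had 24.7 ± 0.627 CPM at 2 h, 26.3 ± 0.632 at 4 h and 25.5 ± 0.795 at 8 h, against 1.31 ± 0.291 CPM at 0 h. The log2 fold changes were 4.23 (SE 0.11), 4.32 (SE 0.11) and 4.27 (SE 0.11), the highest of the 35 at each time. Of the 10 ethylene receptor genes tested, ETR2 Ft1.434 included, 3 rose and 4 fell at 2 h, 4 rose and 5 fell at 4 h, and 5 rose and 4 fell at 8 h. Some of these calls were lost under the alternatives. Without control replicate 3, ETR1 evm.TU.Ft6.3263 lost its rises at 4 h (0.15) and 8 h (0.14). Without control replicate 2, ETR2 evm.TU.Ft6.1014 lost its rise at 2 h (0.10). Without TMM scaling, ERS1 evm.TU.Ft4.6138 (-0.23) and ERS1 evm.TU.Ft6.1641 (-0.14) lost their falls at 8 h. A gene described as EIN2-CEND (evm.TU.Ft3.820), the carrier of the signal from the receptors towards the nucleus, rose by 0.77 (SE 0.05), 1.36 (SE 0.05) and 1.13 (SE 0.05). The other gene of that description (evm.TU.Ft8.3036) fell, with 42.7 ± 4.49 CPM at 2 h, 46.8 ± 1.09 at 4 h and 42.7 ± 1.87 at 8 h, against 64.1 ± 3.44 CPM at 0 h. The changes were -0.59, -0.45 and -0.58 (SE 0.06 each). EIN3 (evm.TU.Ft4.472), the transcription factor at the end of the pathway, fell, with -0.41 (SE 0.04), -0.50 (SE 0.04) and -0.95 (SE 0.04). The other genes described as EIN3 were higher. EIN3 evm.TU.Ft3.1476 averaged 11.7 ± 1.34 CPM at 2 h, 17.9 ± 1.19 at 4 h and 13.3 ± 0.293 at 8 h, against 6.68 ± 0.404 CPM at 0 h. It rose by 0.82 (SE 0.10), 1.424 (SE 0.09) and 0.99 (SE 0.10). EIN3 evm.TU.Ft2.1305 rose by 0.21 at 4 h and 0.26 at 8 h (SE 0.04 each). Its call at 2 h, 0.11 (SE 0.04), was lost without control replicate 3 (0.06), without PEG 2 h replicate 3 (0.08) and with DESeq2 (0.10). RAN1 (evm.TU.Ft7.3468), which supplies the receptors with copper, had 107 ± 2.25 CPM at 8 h, against 138 ± 4.35 CPM at 0 h, a change of -0.37 (SE 0.04). Its value at 4 h, 0.12 (SE 0.04), was called and lost without PEG 4 h replicate 1 (0.09) or without TMM scaling (0.05). RTE1 (evm.TU.Ft8.1894), a partner of the receptor ETR1 in Arabidopsis, stayed between -0.16 and -0.20 (SE 0.07 each), calls that were lost without TMM scaling at 2 h (-0.14) and 8 h (-0.05), at 2 h without control replicate 2 (-0.13) or 3 (-0.15) or PEG 2 h replicate 1 (-0.11) or 2 (-0.14), and at 4 h without control replicate 2 (-0.15) or PEG 4 h replicate 1 (-0.17) or 2 (-0.14).

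The oxidase homologs, dioxygenases that resemble ACC oxidase in sequence without being assigned that reaction, numbered 14 tested genes, of which 7 rose and 2 fell at 2 h, 9 rose and 3 fell at 4 h, and 7 rose and 5 fell at 8 h, where 31.6% and 31.7%, 35.1% and 37.7%, and 36.4% and 34.5% of all tested genes did. Their median log2 fold change was 0.24, 0.78 and 0.04. The rises at 8 h include evm.TU.Ft5.1800, which had 0.781 to 0.932 CPM at 8 h and at most 0.116 CPM in any other library. That gene passed the count filter only through its 8 h libraries, so its part in the counts is no support for a rise. Homolog 6 (evm.TU.Ft5.1210) averaged 164 ± 2.55 CPM at 2 h, 222 ± 6.07 at 4 h and 140.3 ± 6.81 at 8 h, against 86.7 ± 2.48 CPM at 0 h. Homolog 1 (evm.TU.Ft7.4080) had log2 fold changes of 0.80, 1.14 and 1.04 (SE 0.04 each). Further genes described as homolog 1 went both ways. Among them evm.TU.Ft1.1723 rose, with 0.22, 1.70 and 1.61, and evm.TU.Ft5.472 fell, with -0.23, -1.20 and -1.75. The other tested gene described as homolog 3 (evm.TU.Ft7.5075) fell at each time, with -2.05, -2.30 and -1.45. Homolog 3 (evm.TU.Ft7.5076) fell at 8 h, to 31.5 ± 1.52 CPM against 68.2 ± 3.14 CPM at 0 h, and its call at 4 h, 0.13 (SE 0.05), was lost without control replicate 1 (0.10), without PEG 4 h replicate 1 (0.11) and without TMM scaling (0.07).

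**Figure D5:**
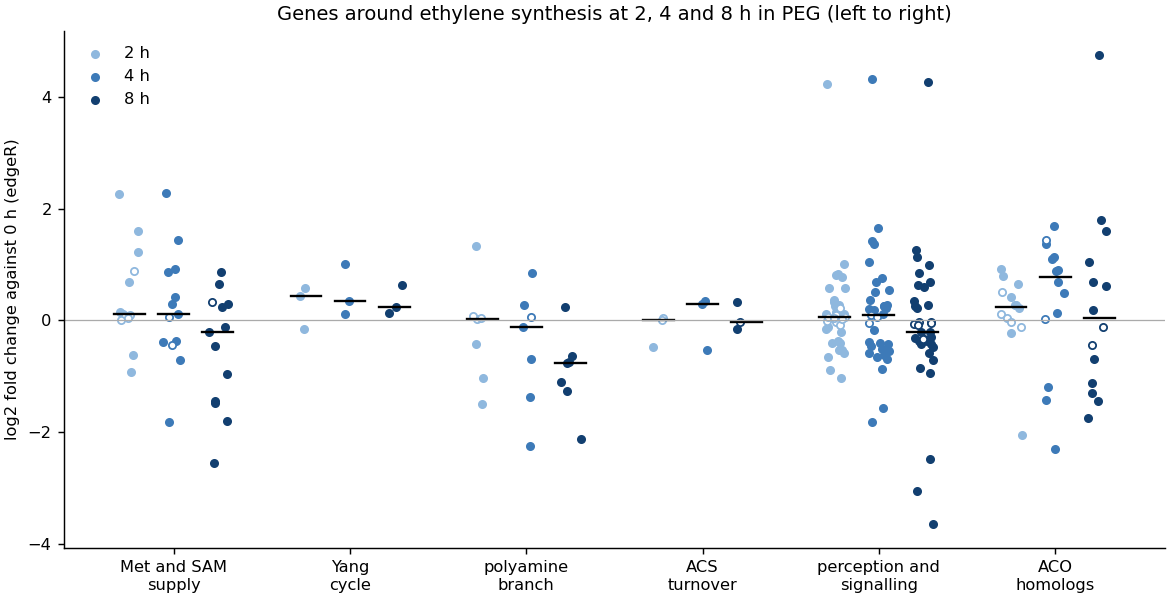
Log2 fold change against 0 h (y axis, edgeR) of the 75 tested genes around ethylene synthesis, in 6 lists (x axis), with 2, 4 and 8 h in PEG from left to right within each list. Each point is a gene, filled where called and open where not, and the bar is the list's median; the receptor gene ETR2 Ft1.434 stays near 4.3 at all 3 times, and the polyamine branch has its lowest median at 8 h.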

How the data were processed

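The authors deposited raw whole-number counts of 26750 genes in 12 libraries and, beside them, FPKM. Each deposited FPKM equalled the count divided by library total and by a length that is a multiple of 3 (largest relative difference 1.72e-07), so it is called a coding length. Per the submitters' processing notes, fastp, HISAT2, HTSeq and DESeq2 were used. The sources used here give no versions, genome build, gene positions or strand setting, and no sequences were used.

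Counts were scaled by TMM and fitted with edgeR's quasi-likelihood test (edgeR 4.0.16, limma 3.58.1, DESeq2 1.42.0, R 4.3.3) over the 4 groups, after filterByExpr (minimum count 10, minimum total 15) removed 4687 genes. P-values were adjusted over all 22063 tested genes within each contrast at 0.05. Library totals of 30468104 to 37395814 counts limit the precision of low genes, and errors cover the spread of 3 libraries. Code was tested on simulated data. Alternatives were DESeq2 size factors, no TMM, DESeq2, other count filters, limma on log2(FPKM + 1) or log2(FPKM + 0.1), a 2-fold minimum, a fit of the 6 compared libraries alone, a replicate block, and leaving out single libraries.

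The genes described and the lists around them were chosen with earlier results of these data known. All 10 members are named, with up to 3 genes of each list by the smallest p over the 4 times, genes that alone fill a step, and the 3 genes with the highest Pearson r for 3 members.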

Additional observations from a re-analysis of the deposited data

Results flagged for a closer look

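Opposite directions at different times in PEG, each called by edgeR against 0 h and with the difference itself tested, were seen in 2 of the 10 genes. ACS1 Ft6.1713 was lower by 1.45 on the log2 scale at 8 h and higher at 4 h (0.54) and 2 h (0.38). The difference was -1.99 for 8 h against 4 h (edgeR adjusted p = 1.27e-21) and -1.83 for 8 h against 2 h (1.71e-20), and the 3 libraries of 8 h lay below all 6 libraries of 2 and 4 h. ACO1 Ft6.2151 was higher at 2 h (0.23) and 8 h (0.53) and lower at 4 h (-0.52), with a difference of -0.75 for 4 h against 2 h (1.55e-13) and 1.05 for 8 h against 4 h (2.47e-18), and again no libraries of these groups overlapped. Groups of 3 libraries are too small for the check of single outlying samples.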

How the results depend on the processing

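Of 1349 values of single members under the alternatives, 1279 kept the direction and the side of the threshold, and 25 changed sign, each for a difference that edgeR had not called. With the 2-fold minimum, 1 member stayed called at 2 h (1 rose, 0 fell) and 5 at 4 h (2 rose, 3 fell), and 6 at 8 h (2 rose, 4 fell). In the steps it left 4 at 4 h against 2 h (1 rose, 3 fell), 4 at 8 h against 4 h (1 rose, 3 fell) and 5 at 8 h against 2 h (1 rose, 4 fell). It left 10, 20 and 21 of the surrounding genes at 2, 4 and 8 h, where 51, 67 and 65 were called without it, and 4101, 5976 and 5957 of all tested genes. The counts of surrounding genes at 4 and 8 h include low genes that passed the filter only through the groups where they were highest. The stricter filter dropped ACS7 and both ACC oxidase 5 genes, leaving 3 members lower at 4 h and 3 at 8 h. Without TMM the median log2 fold change of all genes was -0.10 at 4 h and 0.18 at 8 h against 0 h, 0.26 at 8 h against 4 h and 0.15 at 8 h against 2 h, and the share of calls that were higher was 62.5% at 8 h (51.4% with TMM), 37.1% at 4 h against 2 h (49.5%), 70.7% at 8 h against 4 h (51.6%) and 63.3% at 8 h against 2 h (49.4%).

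Sign changes were as follows. ACC oxidase 5 Ft2.3565 at 2 h was 0.0085 without TMM and 0.026 to 0.038 with limma, with a range of -0.15 to 0.23 over left-out libraries, and at 8 h its range was -0.34 to 0.044. ACS7 was -0.023 without TMM and -0.015 to -0.020 with limma at 4 h against 2 h (left-out range -0.14 to 0.23), and -0.022 with DESeq2 and -0.018 with its size factors at 8 h against 4 h (-0.30 to 0.24), with -0.23 to 0.30 at 8 h against 2 h. ACS1 Ft2.520 at 8 h against 2 h was 0.030 without TMM and 0.020 to 0.022 with limma. Around the members, EOL1 at 8 h was 0.0048 without TMM and 0.0032 to 0.0034 with limma, ETO1 was -0.011 at 2 h with the stricter filter (left-out range -0.0099 to 0.022) and 0.12 at 8 h without TMM or with limma (-0.064 to 0.019), and SAMDC2 Ft1.409 at 4 h was -0.0064 without TMM and with limma. The ETO1 rise at 8 h was called without TMM (edgeR adjusted p = 0.0292) and with limma after the FPKM filter (0.0488 and 0.0486). With limma and no filter it was not called (0.0501). Over left-out libraries SAMDC2 Ft1.2798 at 2 h ran from -0.00046 to 0.046 and homolog 3 Ft7.5076 from -0.056 to 0.017. METK5 Ft5.386 was -0.014 at 4 h and 0.030 at 8 h without TMM or with limma, where edgeR with TMM had called a fall at 8 h. Receptors ERS1 Ft4.6139 and ETR1 Ft6.3263 at 2 h, neither called, ran over left-out libraries from -0.034 to 0.40 and from -0.10 to 0.027. The causes were not tested.

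The replicate numbers did not pair the libraries: deviations from group means correlated between same-numbered libraries at -0.068 to 0.088, and 2 of 12 libraries correlated best with their own number. With the replicate block 8, 9 and 9 members were called at 2, 4 and 8 h, as without it, and ACC oxidase 5 Ft2.3565 at 2 h was 0.0041. Depth limits evm.TU.Ft2.3572 most, which had 3 to 8 counts in each library at 4 and 8 h.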

Other observations

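The annotation holds further genes with an ACS symbol that the choice by description left out. ACS10 (evm.TU.Ft1.1960) and ACS12 (evm.TU.Ft4.1636) are described as probable aminotransferases, in line with their Arabidopsis namesakes, which lack ACC synthase activity. They were looked at after their values were seen. ACS10 fell at each time, with 21.0 ± 0.580 CPM at 2 h, 12.6 ± 0.526 CPM at 4 h and 9.04 ± 1.35 CPM at 8 h, against 48.3 ± 2.61 CPM at 0 h. Its log2 fold change was -1.20 (SE 0.07), -1.94 (SE 0.08) and -2.42 (SE 0.08), with an edgeR adjusted p of 9.11e-27 at 8 h. ACS12 was lower by less, with -0.38, -0.26 and -0.41 (SE 0.05 each), and had 51.7 ± 0.989 CPM at 8 h, against 68.8 ± 4.48 CPM at 0 h.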
